A study of Saccharomyces cerevisiae with 57 samples.

Results

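The regions described here are the replication origins of budding yeast, called autonomously replicating sequences (ARSs), as annotated in the sacCer3 (R64) genome. All 360 annotated origin features were considered, and 8 mitochondrial origins, 9 within 2 kb of a chromosome end and 2 in the rDNA of chromosome XII were left out. The remaining 341 origins were each widened by 200 bp on both sides. They measured between 51 and 1324 bp with a median of 241 bp, and the median window was 641 bp. Of the 341, 203 lay between genes, 119 partly in a gene and 19 inside a gene, and 52 are annotated as putative. ChEC-seq cuts DNA next to a protein fused to micrococcal nuclease (MNase) once calcium is added to permeabilized cells, so that the ends of the released fragments mark the cuts. Strains of the W1588-4C background carried Abf1, Rap1 or Reb1 with a C-terminal 3FLAG-MNase tag joined by a long linker, and a control strain expressed free 3FLAG-MNase with a nuclear localization signal from the REB1 promoter, integrated at URA3. Each strain gave libraries without calcium, every 10 s from 10 to 60 s after calcium, and at 2.5, 5, 10 and 20 min. Further libraries came from Abf1 and Reb1 fusions with a shortened linker, from Reb1 tagged at its N terminus and carried on a plasmid with chromosomal REB1 deleted, and from Abf1 in a crosslinked MNase ChIP (X-ChIP-seq). The 3 factors had 3 replicates each at 30 s, and every other condition was a single library. Nothing in the labels says that replicates were separate cultures, so the spread between them may be technical.

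Origins are where DNA replication begins. The origin recognition complex binds an origin through the ARS consensus sequence (ACS), a T-rich element, and then loads the replicative helicase, while further elements, the B elements, lie on the side towards which the T-rich strand runs. Abf1 was named for its binding to ARSs, and its site at the classical origin ARS1 (listed as ARS416 in newer annotation) is one of those B elements. Abf1, Rap1 and Reb1 are general regulatory factors that bind short sequences mostly at promoters and keep the DNA around them free of nucleosomes. Abf1 and Rap1 also bind the silencers of the silent mating loci HML and HMR, some of which are origins, and Rap1 binds the telomeric repeats.

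The sequences below are from sacCer3 (R64 reference), plus strand, 50 bases on each side of the centre of the 30 s summit, the 51-bp stretch of each window that held the most ends in the mean of the 3 replicates. Capitals mark matches to the motif searched on both strands. For Abf1 that motif was TCACNNNNNACG, TCATNNNNNACG, TCGCNNNNNACG or TCGTNNNNNACG. The first 6 Abf1 origins are shown because they hold a motif at the summit, and ARS813 and ARS1 because they were cut by Abf1-MNase without a match to these letters.
ARS1021, chrX:683783-683883: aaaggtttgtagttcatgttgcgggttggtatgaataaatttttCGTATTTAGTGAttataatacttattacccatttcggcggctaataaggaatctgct
ARS1417, chrXIV:412561-412661: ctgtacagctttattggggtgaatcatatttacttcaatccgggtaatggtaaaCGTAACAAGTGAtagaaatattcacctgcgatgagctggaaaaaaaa
ARS734, chrVII:999261-999361: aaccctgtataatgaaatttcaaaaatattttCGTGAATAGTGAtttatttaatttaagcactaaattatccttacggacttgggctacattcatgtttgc
ARS1113, chrXI:416991-417091: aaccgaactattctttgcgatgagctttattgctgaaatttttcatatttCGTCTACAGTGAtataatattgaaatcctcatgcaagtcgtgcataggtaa
ARS317, chrIII:292715-292815: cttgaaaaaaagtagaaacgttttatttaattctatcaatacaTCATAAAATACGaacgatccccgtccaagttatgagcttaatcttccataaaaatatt
ARS302, chrIII:14544-14644: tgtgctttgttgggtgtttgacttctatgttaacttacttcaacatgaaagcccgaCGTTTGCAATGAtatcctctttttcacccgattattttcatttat
ARS813, chrVIII:245993-246093: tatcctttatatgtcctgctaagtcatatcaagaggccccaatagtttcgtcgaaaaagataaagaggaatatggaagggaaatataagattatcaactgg
ARS1, chrIV:462452-462552: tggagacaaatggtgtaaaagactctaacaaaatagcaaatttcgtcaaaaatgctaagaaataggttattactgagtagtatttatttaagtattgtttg

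The Reb1 motif was TTACCCG. The 3 origins shown had the highest Reb1 folds and a motif within the stretch shown.
ARS1109, chrXI:329541-329641: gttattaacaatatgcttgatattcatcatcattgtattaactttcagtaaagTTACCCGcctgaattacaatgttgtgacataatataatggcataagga
ARS737, chrVII:888614-888714: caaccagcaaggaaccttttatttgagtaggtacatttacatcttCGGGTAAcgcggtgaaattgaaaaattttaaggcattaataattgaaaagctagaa
ARS910, chrIX:113605-113705: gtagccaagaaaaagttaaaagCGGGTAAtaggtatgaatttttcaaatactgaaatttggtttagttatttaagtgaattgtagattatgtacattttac

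The Rap1 motif was ACCCNNACA. ARS716 and ARS503 held it within the stretch shown, and ARS815 and ARS1420, which were cut more strongly than ARS716 by Rap1-MNase, did not.
ARS716, chrVII:352597-352697: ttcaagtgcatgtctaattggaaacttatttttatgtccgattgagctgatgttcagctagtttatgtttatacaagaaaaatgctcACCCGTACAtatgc
ARS503, chrV:6270-6370: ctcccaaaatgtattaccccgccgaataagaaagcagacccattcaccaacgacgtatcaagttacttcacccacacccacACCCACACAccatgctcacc
ARS815, chrVIII:296977-297077: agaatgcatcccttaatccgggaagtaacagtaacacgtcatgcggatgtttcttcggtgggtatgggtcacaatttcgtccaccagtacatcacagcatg
ARS1420, chrXIV:499218-499318: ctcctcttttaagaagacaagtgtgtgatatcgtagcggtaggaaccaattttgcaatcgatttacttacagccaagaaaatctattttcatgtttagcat

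ARS1 itself is annotated as a feature of 56 bp (chrIV:462567-462622), printed here on the plus strand with its match to the ACS, which lies on the minus strand, in capitals. The Abf1 summit shown above lay outside it, within the 200-bp flank.
ARS1, chrIV:462567-462622: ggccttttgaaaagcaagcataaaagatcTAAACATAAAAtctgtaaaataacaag

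The 56 ChEC-seq libraries held between 60072 (free MNase, 20 s) and 13261165 ends outside the rDNA and the mitochondrial genome, and the 10 libraries compared at 30 s held between 4464056 and 8654062. A level is given below as normalised ends per kb, that is ends per kb of window in a library scaled to 1000000 of these ends. The free MNase library of 30 s stood apart from its neighbours. Origin windows held 1.93% of its ends, against 2.53% at 20 s and 2.51% at 40 s, and its density of ends was the same in origin windows and elsewhere (ratio 1.00). Its mitochondrial share of 16.1% was below the 29.3% and 31.4% of those neighbours, and the part of this in the results was not tested. The totals of origins called against free MNase, and their split by pattern, gene arrangement, chromosome end and motif, are therefore also given with the 40 s library in its place. The scale matters too. At 30 s the ends of the factor libraries were gathered at few places, so that the median of all windows lay below free MNase by a log2 value of -1.99 for Abf1, -2.82 for Rap1 and -2.08 for Reb1. The medians over origins were -0.41, -1.50 and -0.92. The difference between origins and all windows was 1.58, 1.32 and 1.16. After TMM scaling the medians of all windows were -0.25, -0.33 and -0.18, and that difference was 1.59, 1.34 and 1.17. Of the 341 origins, 310 lay above the median of all windows for Abf1, 298 for Rap1 and 293 for Reb1. Most of all windows are centred in genes. Rest windows centred between genes had medians of -0.19, -1.17 and -0.76 on the main scale, above those of origins.

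With their ends pooled, origin windows were cut more densely than the rest of the genome and less densely than other stretches between genes, by most with Rap1. At 30 s the density of ends in origin windows over that in the rest of the nuclear genome was 2.17, 2.082 and 2.16 in the 3 Abf1 replicates, 1.66, 1.64 and 1.59 for Rap1, and 2.05, 2.18 and 2.10 for Reb1. Every Rap1 library lay below every Abf1 and Reb1 library, while those of Abf1 and Reb1 overlapped. The ratio of Abf1 exceeded that of Rap1 by 0.508 (2.14 ± 0.0477 against 1.63 ± 0.0385, SD, n = 3 each, exact two-sided permutation test, p = 0.1, adjusted p = 0.15 over 3 pairs), and 0.1 is the smallest p that 3 against 3 libraries allow. Rap1 and Reb1 (2.11 ± 0.0655) differed by -0.483 with the same exact permutation p. Abf1 and Reb1 differed by 0.025 (exact permutation test, p = 0.7, n = 3). Set against the 4568 windows of 650 bp centred between genes, Abf1 had a ratio of 0.919 ± 0.00717, Rap1 of 0.601 ± 0.0190 and Reb1 of 0.879 ± 0.0152 (SD, n = 3 each). Origin windows were thus below these windows in all 9 libraries. Of the 341 origins, 138 overlap a gene, so a mixed set is compared here with windows between genes. All these ratios pool the ends of 341 windows, so a few strongly cut origins weigh heavily in them. In the 3 Rap1 libraries the median origin stood at 27.19, 30.11 and 24.95 normalised ends per kb. The pooled levels were 115.95, 115.06 and 106.49. For Abf1 and Reb1 the medians also lay below the pooled levels. ARS736, of largely repeated sequence, had a Rap1 mean of 4634, and ARS1109 a Reb1 mean of 6180. Ratios without such windows were not computed.

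**Figure D1:**
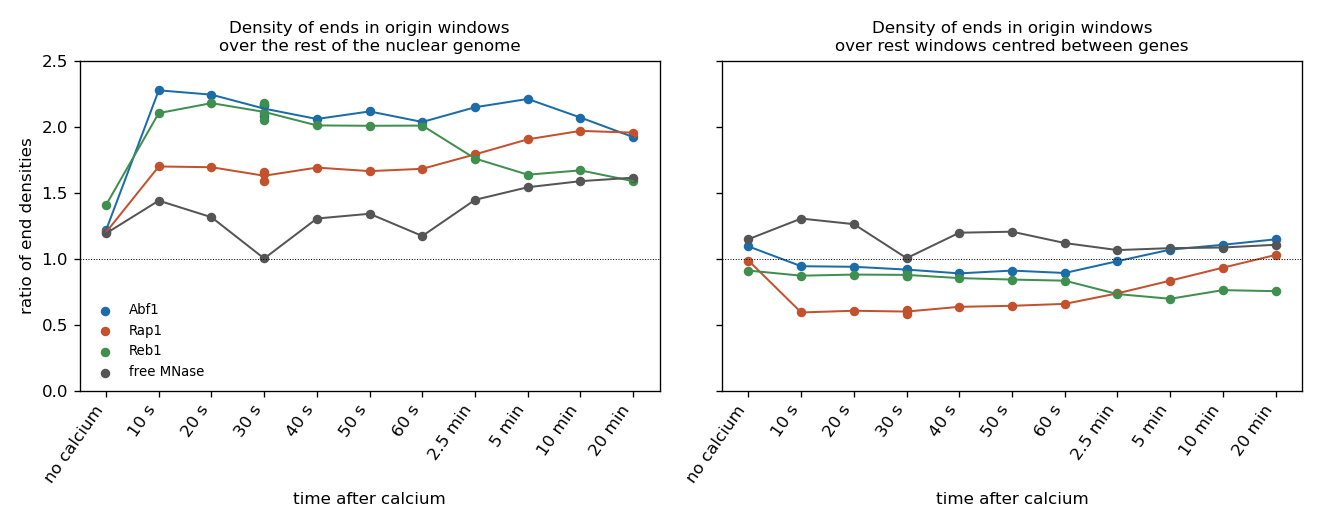
Density of ends in the 341 origin windows divided by that in the rest of the nuclear genome (left) or in rest windows centred between genes (right), against time after calcium, for each library of 4 strains; lines join the mean at each time and the dotted line marks a ratio of 1. On the left the Abf1 and Reb1 points stay near 2 up to 60 s, and on the right every factor point between 10 and 60 s lies below 1.

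Over time the ratio against the rest of the genome moved differently in the 4 strains. Without calcium it stood at 1.22 (Abf1), 1.201 (Rap1), 1.41 (Reb1) and 1.19 (free MNase). Abf1 stayed between 1.92 and 2.28 from 10 s to 20 min. Rap1 went from 1.70 at 10 s to 1.96 at 20 min and Reb1 from 2.10 to 1.59, and free MNase reached 1.61 at 20 min. Against rest windows centred between genes, the Abf1 ratio was 1.07, 1.11 and 1.15 at 5, 10 and 20 min. Rap1 reached 1.03 and Reb1 stood at 0.756 at 20 min. Free MNase lay above 1 in all its libraries, between 1.01 (30 s) and 1.305 (10 s). These are single libraries except at 30 s. In the factor strains the libraries of 2.5 min and later carry other run codes than those of the seconds. Time and run cannot be told apart at that step. A run here means a date-like code kept with each library, and the sample descriptions do not say what it marks.

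Abf1 was enriched over free MNase at 75 of the 341 origins at 30 s, Reb1 at 53 and Rap1 at 35, where an origin was called when it was higher with an adjusted p under 0.05 (edgeR quasi-likelihood test, Benjamini-Hochberg over all 18183 windows tested) and at least 2-fold. The shares of all windows called were 11.7% for Abf1, 6% for Rap1 and 8.79% for Reb1, against 22%, 10.3% and 15.5% of origins. Windows of the rest centred between genes were called at 28.9%, 16.3% and 21%, and those centred in genes at 5.51%, 2.37% and 4.42%. With this control the shares of origins thus lay between these, nearer to the former. The control side of this comparison was 1 library. Its run code differed from that of every Abf1 and Rap1 library of 30 s and matched that of Reb1 replicate 1 alone. For Abf1 and Rap1 a difference between runs and one from free MNase thus cannot be told apart in a direct comparison. With the 40 s free MNase library, of the same run, 53 (15.5%), 28 (8.21%) and 47 (13.8%) origins were called for Abf1, Rap1 and Reb1, and 11.5%, 6.07% and 8.68% of all windows. Rest windows centred in genes were then called at 5.88%, 2.56% and 4.61%. With that control the origin shares for Abf1 and Rap1 were no longer nearer to windows between genes than to those in genes. In a fit with the run as a block, added after seeing the data, which ties the control to Abf1 and Rap1 through the Reb1 libraries, the counts were 54, 28 and 45, and the shares of all windows 9.52%, 4.84% and 7.49%. With TMM scaling 211, 171 and 167 origins were called higher and 8, 10 and 6 lower, against 106, 210 and 159 lower on the main scale, and the shares of all windows called higher rose to 29.5%, 26% and 25.3%. On the main scale 12110, 14639 and 13251 of all 18183 windows were lower. For the TMM scale the lower windows were not counted over the genome, so its lower counts cannot be set against other windows.

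**Figure D2:**
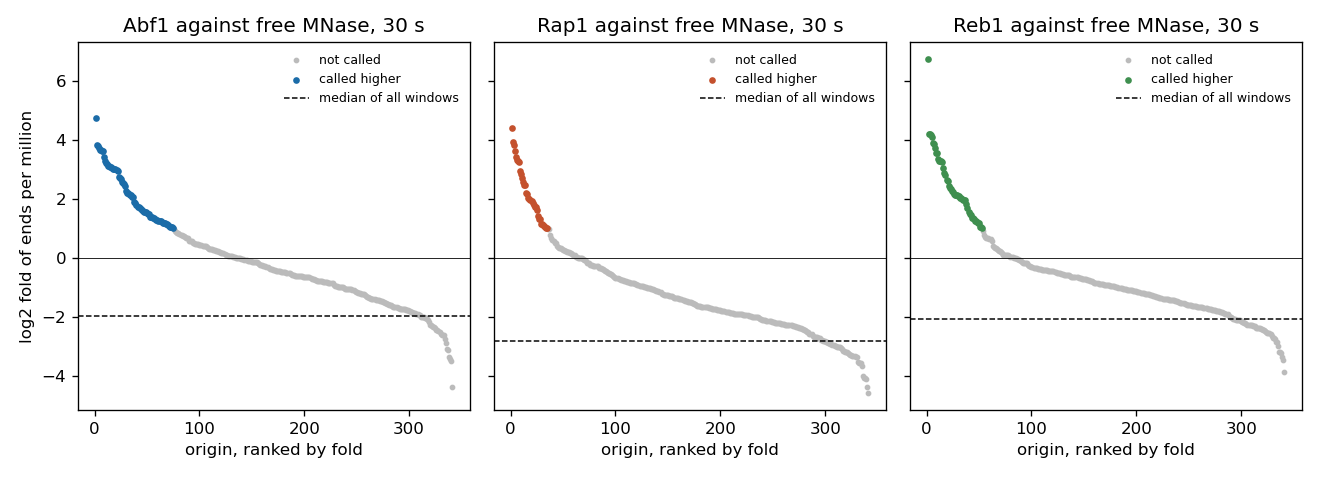
Log2 fold of normalised ends at 30 s against free MNase for each of the 341 origins, ranked within each factor; coloured points are called higher and the dashed line is the median of all windows. The highest values are 4.74 for Abf1, 4.41 for Rap1 and 6.76 for Reb1, and 75, 35 and 53 origins are coloured.

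At 237 origins (69.5%, against 81.7% of the windows of the rest) none of the 3 factors was called. Abf1 alone was called at 33 origins (9.68%, rest 6.11%), Rap1 alone at 13 (3.81%, rest 2.07%) and Reb1 alone at 13 (3.81%, rest 4.39%). Abf1 and Reb1 were called together at 23 origins (6.74%, rest 1.92%), Abf1 and Rap1 at 5 (1.47%, rest 1.5%), Rap1 and Reb1 at 3 (0.88%, rest 0.403%), and all 3 factors at 14 (4.11%, rest 1.94%). With the 40 s control, none was called at 254 origins (74.5%, rest 81.8%) and Abf1 alone at 24 (7.04%, rest 6.07%). Rap1 alone was called at 12 (3.52%, rest 2.09%) and Reb1 alone at 20 (5.87%, rest 4.36%). Abf1 and Reb1 were then called together at 15 origins (4.4%, rest 1.8%) and Abf1 and Rap1 at 4 (1.17%, rest 1.52%). Rap1 and Reb1 were called together at 2 (0.587%, rest 0.397%), and all 3 factors at 10 (2.93%, rest 2.01%). The 3 contrasts share the free MNase library, so these overlaps are counts only.

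The share of origins called differed by gene arrangement, as did that of other windows. Of the 41 origins between divergent genes, whose promoters face the origin from both sides, Abf1 was called at 17 (41.5%), Rap1 at 6 (14.6%) and Reb1 at 17 (41.5%), against 39.2%, 23.3% and 29% of the rest windows centred between such genes. Of the 48 origins between convergent genes 6 (12.5%), 3 (6.25%) and 0 were called, against 7.46%, 2.84% and 4.48%. The 114 origins between genes that run the same way gave 30 (26.3%), 16 (14%) and 23 (20.2%) calls, against 28%, 15.3% and 20.3%. The 138 origins that overlap a gene gave 22 (15.9%), 10 (7.25%) and 13 (9.42%), against 5.5%, 2.37% and 4.42% of windows centred in a gene. With the 40 s control the counts were 13 (31.7%), 6 (14.6%) and 15 (36.6%) between divergent genes, against 38.8%, 23% and 27.6% of rest windows, and 20 (17.5%), 12 (10.5%) and 19 (16.7%) between genes that run the same way, against 26%, 15.3% and 19.7%. They were 4 (8.33%), 3 (6.25%) and 0 between convergent genes, against 5.97%, 2.54% and 3.73%. Over genes they were 16 (11.6%), 7 (5.07%) and 13 (9.42%), against 5.88%, 2.56% and 4.61%. Between divergent genes and between genes that run the same way, the Abf1 share of origins was thus near that of other windows with one control and below it with the other.

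In the comparison of each factor with the mean of the other 2, which does not use free MNase, Abf1 was higher at 127 origins and lower at 12, Reb1 higher at 54 and lower at 44, and Rap1 higher at 23 and lower at 157. The shares of all windows called higher were 23.7% for Abf1, 22% for Reb1 and 7.52% for Rap1, against 37.2%, 15.8% and 6.74% of origins. Of all 18183 windows, 1424 were lower for Abf1, 2154 for Reb1 and 7261 for Rap1, so many lower windows were not particular to origins. Between genes outside origins the shares were 32.8%, 19.5% and 12.4%. On the TMM scale Abf1 was higher at 74 origins and lower at 35, Reb1 higher at 44 and lower at 63, and Rap1 higher at 58 and lower at 67. The shares of all windows called higher were then 16% for Abf1, 17.9% for Reb1 and 14.6% for Rap1. Lower windows were not counted over the genome on that scale. Abf1 was the factor with the most origins higher than the others on both scales, and the counts for Rap1 and Reb1 changed order. With the run as a block the counts were 113 for Abf1, 20 for Rap1 and 84 for Reb1, and the shares of all windows 24.5%, 7.8% and 25.3%.

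The origin with the largest Abf1 fold was ARS1021 (chrX:684009-684098, between MET5, a sulfite reductase gene, and IML1). Its Abf1 replicates stood at 2646, 2121 and 2152 normalised ends per kb, its Rap1 replicates at 180, 117 and 94.7, its Reb1 replicates at 245, 655 and 673, and free MNase at 86.2. The Abf1 libraries were all far above the rest, and Reb1 replicate 1 was lower than the other two. Abf1 exceeded free MNase by 4.74 ± 0.54 on the log2 scale (SE; edgeR, adjusted p = 1.4e-08) and the mean of the other factors by 3.14 (edgeR, adjusted p = 3.0e-13). Its motif, shown above, was centred 0.5 bp from the summit.

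ARS813 (chrVIII:245773-245847, between OSH3 and QNS1, the NAD synthetase) was called for Abf1 alone. Its levels were 959, 947 and 861 with Abf1, 44.9, 48.0 and 33.5 with Rap1, 48.9, 89.1 and 77.5 with Reb1, and 71.7 with free MNase. The log2 fold against free MNase was 3.68 ± 0.40 (SE; edgeR, adjusted p = 7.1e-09) for Abf1 and -0.77 and -0.01 for Rap1 and Reb1. No match to the Abf1 letters was found in its window.

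ARS1417 (chrXIV:412267-412496, between YNL115C and RPC19, a subunit shared by RNA polymerases I and III) stood at 909, 951 and 1028 with Abf1 and at 274, 593 and 574 with Reb1, against 76.2 with free MNase. ARS734 (chrVII:999456-999576, between PUP2 and ENO1, an enolase) stood at 1119, 1050 and 1066 with Abf1 and at 86.0 with free MNase. Both were called for Abf1 and Reb1, with Abf1 log2 folds of 3.66 and 3.65 and Reb1 log2 folds of 2.65 and 1.04. The other 4 of the 8 largest Abf1 folds, at ARS201, ARS523, ARS736 and ARS1002, lay between 6.1 and 7.4 kb from a chromosome end. At the edge of the rule, ARS1220 had an Abf1 log2 fold of 1.03 and ARS1526 one just under 1, and with the 40 s free MNase library ARS1220 fell to -0.21.

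ARS1, the origin at which Abf1 binding is textbook knowledge, stood at 426, 404 and 423 with Abf1, 36.0, 55.5 and 33.7 with Rap1, 114, 136 and 152 with Reb1, and 90.4 with free MNase. The Abf1 group did not overlap the others. The Abf1 log2 fold against free MNase was 2.21 ± 0.35 (SE; edgeR, adjusted p = 2.0e-06), and against the mean of the other factors 2.49 (edgeR, adjusted p = 1.3e-13). All 3 Abf1 replicates put the summit at the same base. Rap1 at ARS1 lay below free MNase by a log2 value of -1.12, above the median of all windows, and the Reb1 value of 0.57 did not pass the test (edgeR, adjusted p = 0.095).

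ARS1113 (chrXI:417185-417417), chosen after its values were seen because its motif lies at the summit, stood at 696, 627 and 742 with Abf1 and at 69.8 with free MNase, with a log2 fold of 3.30. The 33 origins called for Abf1 alone had medians of 39.5, 62.1 and 63.6 in the 3 Reb1 libraries. Reb1 replicate 1, the lowest, came from another run than replicates 2 and 3, which share theirs with Abf1 replicate 1. The part of the run in these levels was not tested.

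At the silent mating loci, ARS317 (the HMR-E silencer) stood at 350, 395 and 623 with Abf1 and at 134, 235 and 172 with Rap1 against 52.3 with free MNase, and ARS318 (HMR-I) at 307, 551 and 645 with Abf1. ARS302 (HML-I, whose window overlaps those of ARS303 and ARS320) stood at 794, 651 and 839 with Abf1, whereas ARS301 (HML-E) stood at 321, 431 and 362 with Rap1 and at 78.7, 83.2 and 91.8 with Abf1. Reb1 was not called at any of these 4 origins, and ARS301 was called for Rap1 alone with a log2 fold of 2.01 ± 0.32 (SE; edgeR, adjusted p = 1.4e-06). The Rap1 call at ARS317 (log2 fold 1.78) was lost against the 5 free MNase libraries of 10 to 60 s without the 20 s library, where the log2 fold was 0.68 (edgeR, adjusted p = 0.034), and with the run as a block (0.68, edgeR, adjusted p = 0.079).

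**Figure D3:**
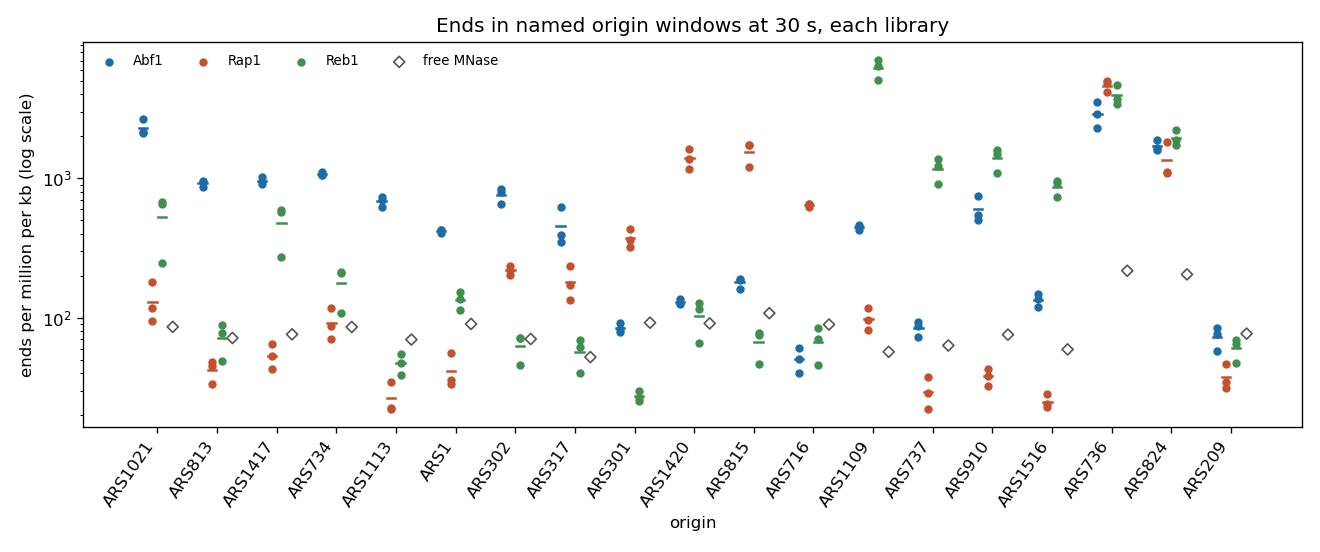
Normalised ends per kb (log scale) in 19 named origin windows at 30 s; filled points are the 3 replicates of each factor, short bars their means, and open diamonds the single free MNase library. Abf1 replicates stand at 2121 or more at ARS1021 and Reb1 replicates at 5111 or more at ARS1109, while at ARS209 all factor points lie near or below free MNase.

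The largest Rap1 folds outside the chromosome ends were at ARS1420 and ARS815. ARS1420 (chrXIV:498970-499154, next to FKH2, a forkhead transcription factor) stood at 1634, 1373 and 1164 with Rap1, 136, 125 and 129 with Abf1, 65.5, 116 and 128 with Reb1, and 91.2 with free MNase. ARS815 (chrVIII:297060-297179, between HXT5, a hexose transporter, and PAL2) stood at 1200, 1723 and 1730 with Rap1 and at 108 with free MNase. The Rap1 libraries overlapped no other group at either origin. Their log2 folds against free MNase were 3.93 ± 0.42 and 3.84 ± 0.41 (SE; edgeR, adjusted p = 1.8e-09 and 1.7e-09), and Abf1 and Reb1 were called at neither. ARS716 (chrVII:352760-352906), chosen after its values were seen for its motif, stood at 655, 650 and 623 with Rap1 and at 89.6 with free MNase, a log2 fold of 2.84. The next ones by rank, ARS228, ARS724, ARS1407 and ARS915, had Rap1 log2 folds of 3.44, 3.34, 3.28 and 3.27. ARS915, which overlaps RGI2 and the tRNA gene SUP17, stood at 850, 683 and 679 with Rap1, and ARS519, which overlaps SCR1, the RNA of the signal recognition particle, was the last origin inside the rule with a log2 fold of 1.03. ARS1226, just outside it, had a value that rounds to 1.00.

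Reb1 gave the highest level of any factor at any named origin, at ARS1109 (chrXI:329682-329930, between MPE1 and TOA2, a subunit of the general factor TFIIA). Its Reb1 replicates stood at 7079, 6350 and 5111, its Abf1 replicates at 424, 447 and 463, its Rap1 replicates at 117, 96.6 and 82.4, and free MNase at 57.1. Reb1 stood above all others by a log2 value of 6.76 ± 0.48 against free MNase (SE; edgeR, adjusted p = 6.9e-11), a 108-fold difference, and Abf1 was called there as well with a log2 fold of 2.96. The window holds 2 matches to the Reb1 motif and none to that of Abf1, and the summits of the 3 Reb1 replicates were up to 436 bp apart.

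ARS737 (chrVII:888413-888493, between XKS1, a xylulokinase, and SKI6, an exosome subunit) stood at 915, 1380 and 1218 with Reb1 and at 63.3 with free MNase, and its Abf1 (72.3, 94.1 and 87.9) and Rap1 levels (37.4, 28.7 and 22.4) stayed near or below the control. ARS910 (chrIX:113237-113806, overlapping TAO3 and MET18) stood at 1085, 1588 and 1503 with Reb1 and at 753, 505 and 548 with Abf1, with an Abf1 motif 7.5 bp from the Abf1 summit and a Reb1 motif 25 bp from the Reb1 summit. ARS1516 (chrXV:566410-566643, between the adenine synthesis gene ADE2 and AFI1) stood at 734, 963 and 927 with Reb1 and 119, 148 and 136 with Abf1. The Reb1 log2 folds against free MNase were 4.21, 4.199 and 3.88. Those of ARS1625, ARS518 and ARS514 were 4.11, 3.92 and 3.72 with no match to the Reb1 letters in the window. ARS1310 was just inside the rule at 1.03 and ARS1019 just outside at 0.92.

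Most origins called for all 3 factors lay near chromosome ends, and many of these share their sequence with other places. Within 20 kb of an end lay 31 origins, of which Abf1 was called at 14, Rap1 at 11, Reb1 at 9 and all 3 factors at 9. Of the 837 rest windows as near to an end, 6.69%, 6.09%, 5.02% and 3.82% were called, against 45.2%, 35.5%, 29% and 29% of these origins. Farther away the counts were 61 (19.7%), 24 (7.74%), 44 (14.2%) and 5 (1.61%) of 310 origins, against 11.7%, 5.9%, 8.82% and 1.84% of rest windows. With the 40 s control they were 14, 12, 9 and 9 near the ends, where 7.89%, 6.81%, 6.09% and 4.06% of rest windows were called, and 39 (12.6%), 16 (5.16%), 38 (12.3%) and 1 (0.323%) farther away, where 11.6%, 5.98%, 8.68% and 1.91% of rest windows were called. Away from chromosome ends the share of origins called for Abf1 or Rap1 was then close to that of other windows. ARS736 (chrVII:1083795-1084863, between COS6 and YRF1-3, a helicase gene of the subtelomeric repeats) stood at 3556, 2289 and 2896 with Abf1, 4131, 4957 and 4815 with Rap1, and 4710, 3686 and 3433 with Reb1, against 218 with free MNase. ARS824, ARS523, ARS201 and ARS600 followed, with the smallest of their 3 log2 folds at 2.71, 2.17, 2.16 and 1.99. Of all 25-base words in the windows of ARS736, ARS523, ARS201 and ARS600, 73.9%, 70.0%, 75.4% and 71.9% also occur elsewhere in the genome, and 40.6% in that of ARS824. Reads were 25 bases long, so that such fragments may have been placed at 1 of several copies. Among the 14 origins called for all 3 factors, 6 had at least 50% of such words, against 19 of all 341. Without these 19, 66, 29 and 47 origins remained called for Abf1, Rap1 and Reb1.

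Matches to the motifs accompanied some of the calls. Abf1 motifs occurred in 55 origin windows (16.1%), in 15.0% of the windows of the rest and in 21.2% of those centred between genes. Reb1 motifs occurred in 17 (4.99%, against 3.92% and 7.79%) and Rap1 motifs in 14 (4.11%, against 4.72% and 6.55%). Origin windows ran from 451 to 1724 bp around their median of 641 bp, while rest windows were all 650 bp, and longer windows have more room for a match. Of the 75 origins called for Abf1, 30 held an Abf1 motif, against 25 of the 266 not called, and of the 53 called for Reb1, 12 held a Reb1 motif, against 5 of 288. Of the 35 called for Rap1, 4 held a Rap1 motif, against 10 of 306, while 15 held an Abf1 motif and 0 a Reb1 motif. An Abf1 motif was held by 40% of the origins called for Abf1, 42.86% of those for Rap1 and 35.85% (19) of those for Reb1. It was thus about as frequent whichever factor was called, and origins called for several factors count in each. With the 40 s control 28 of 53 called origins held the motif for Abf1, 12 of 47 for Reb1 and 3 of 28 for Rap1. Reb1 was called at 70.6% of the origins with its motif and at 68.6% of the rest windows with it, Abf1 at 54.6% and 39.6%, and Rap1 at 28.6% and 24.2%.

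For Abf1 and Reb1 the motif of called origins mostly lay close to the summit. In the 30 called Abf1 origins with a motif, the motif centre nearest the summit was a median of 32 bp from it and within 50 bp in 25 origins, whereas in the 25 origins not called the median was 192.5 bp. For Reb1 the medians were 25 and 183 bp, over 12 and 5 origins. For Rap1 the median over the 4 called origins was 91.5 bp (35 to 371 bp), with 2 within 50 bp. Summits of called origins were also repeatable, with the 3 replicates within 20 bp of each other at 52 of 75 origins for Abf1, 25 of 35 for Rap1 and 44 of 53 for Reb1. Inside the annotated ARS fell 39 of 75 Abf1 summits, 12 of 35 Rap1 summits and 16 of 53 Reb1 summits, and the others lay in the flanks.

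The cuts flanked the Abf1 motif. Medians over the 30 called origins, read along the motif strand and averaged over the 3 Abf1 replicates, were 5949 normalised ends per kb from 20 to 11 bp before the motif centre and 1919 from 10 to 19 bp after it. Between them they dropped to 191 and 49.3 in the 2 stretches of 10 bp that cover the motif. Rap1 libraries gave 375 and 109 at the same flanks, Reb1 libraries 556 and 144, and free MNase 129 and 99.6. In the 25 origins with a motif that were not called, the Abf1 values at the flanks were 43.0 and 39.6. The motif used for each origin was that nearest the summit, so these profiles describe the called origins and were not tested.

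**Figure D4:**
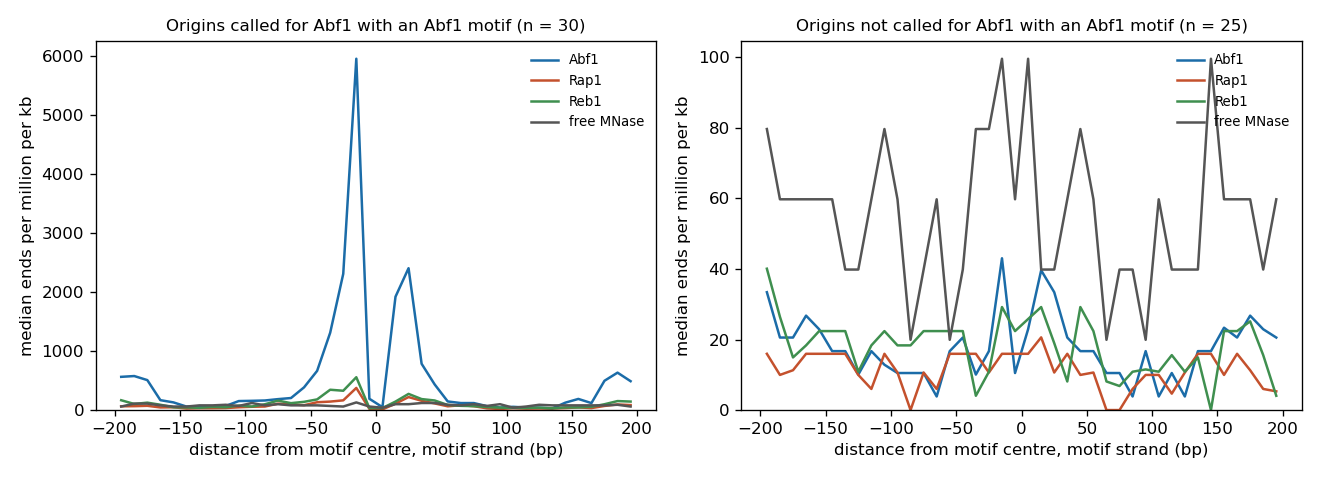
Median normalised ends per kb in stretches of 10 bp around the Abf1 motif nearest the summit, along the motif strand, at 30 s, for 30 origins called for Abf1 (left) and 25 not called (right, with its own scale); factor lines are means over 3 replicates and free MNase is 1 library. On the left the Abf1 line reaches 5949 before the motif and 2402 after it, with 49.3 between, and on the right it stays under 50.

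At the 12 called origins with a Reb1 motif the picture was more one-sided. The Reb1 medians were 6972 from 20 to 11 bp before the motif centre, 2133 in the next 10 bp, 74.6 from 0 to 9 bp after it and 716 beyond that. Abf1 libraries gave 193, 127, 20.6 and 760 in the same stretches.

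An exact ACS match was present in 129 origin windows (37.8%), against 3.33% of the windows of the rest and 5.45% of those between genes, and in 114 origins it lay inside the annotated feature. Origins with such a match were called for Abf1 in 34 of 114 cases (29.8%) and those without in 41 of 227 (18.1%). For Reb1 the counts were 24 (21.1%) and 29 (12.8%), and for Rap1 14 (12.3%) and 21 (9.25%). The share was thus higher with a match for all 3 factors, not for Abf1 alone. Among origins with a single match, the Abf1 summit lay on the side of the B elements in 19 of 32 called origins, with 12 on the other side, and in 53 of 78 not called, with 20 on the other side.

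Aligned on the ACS, free MNase cut a regular pattern at 20 min. The median over the 114 origins was 195 normalised ends per kb in the 20 bp before the match and 224 from 40 to 59 bp after its first base. It fell to 37.3 about 100 bp before the match and to 34.4 from 140 to 159 bp after it, and had further maxima of 158 at 200 to 181 bp before and 143 at 240 to 259 bp after the match. The Abf1, Rap1 and Reb1 libraries of 20 min rose and fell with it, with 287, 243 and 181 in the 20 bp before the match. At 30 s the free MNase values stayed between 49.8 and 94.6 over the whole range and showed no such pattern at this depth.

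**Figure D5:**
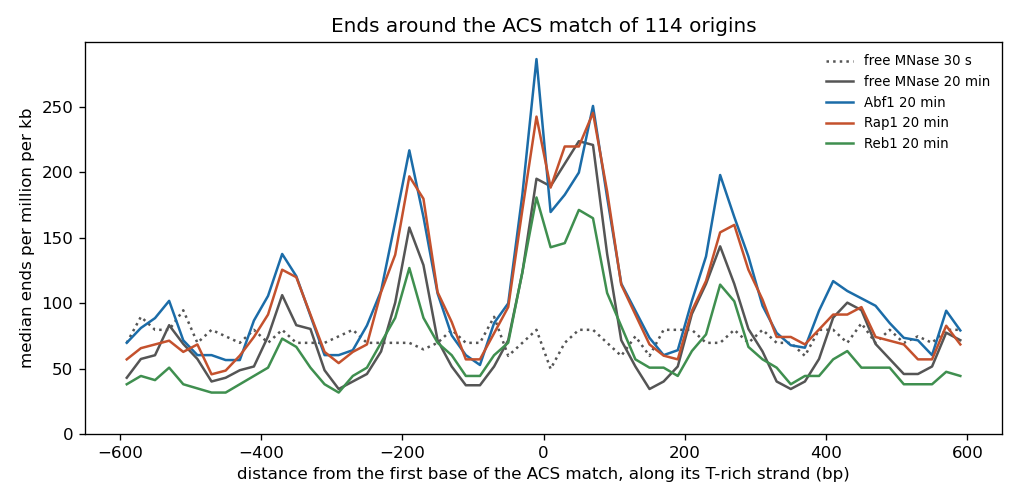
Median normalised ends per kb in stretches of 20 bp around the ACS match of 114 origins, along the T-rich strand, in the 20 min library of each strain and in free MNase at 30 s (dotted). The 20 min lines share a broad maximum from just before the match to about 80 bp after it and lower maxima near 190 bp before and 250 bp after, and the dotted line stays between 49.8 and 94.6.

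Called origins more often had their highest level within the first 60 s than the others, and the medians of both sets went different ways after 2.5 min. The median ratio of the 60 s level to the 10 s level was 1.29 at origins called for Abf1 and 1.69 at those not called, 1.53 and 2.28 for Rap1, and 1.68 and 1.24 for Reb1, all above 1. The median ratio of the 20 min level to the 2.5 min level was 0.621 and 1.58 for Abf1, 0.546 and 2.21 for Rap1, and 0.546 and 1.82 for Reb1. The median level of the 75 Abf1 origins in the Abf1 strain was 104 without calcium, 201 at 10 s, 288 to 309 in the 3 replicates at 30 s, 334 at 2.5 min and 214 at 20 min. At the 237 origins called for no factor it was 93.8 without calcium, 25.01 at 10 s, 32.4 to 45.5 at 30 s and 129 at 20 min. Of the 75 Abf1 origins, 38 had their highest level at or before 60 s and 37 later, and of the 266 others 0 had it by 60 s. The same counts were 22 of 35 and 2 of 306 for Rap1 and 29 of 53 and 5 of 288 for Reb1. The 30 s libraries that made the calls are among those compared, so these counts are a description. The split after 60 s is also where the run changes in the 3 factor strains. They are also shares of all ends in a library, and a level can fall because other places gained ends.

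The strongest origins were cut early. ARS1021 stood at 2651 normalised ends per kb at 10 s in the Abf1 strain, 2883 at 20 s, 2232 at 60 s, 1291 at 2.5 min and 354 at 20 min. ARS1109 stood at 6874, 7784, 5307, 1741 and 293 in the Reb1 strain at the same times. Both fell steeply after 60 s. The run changed between 60 s and 2.5 min, so time and run cannot be told apart at that step. Both fell further from 2.5 to 20 min, within the same run. ARS1420 in the Rap1 strain was flatter, at 1198, 1350, 1676, 1301 and 456, and ARS1 in the Abf1 strain flatter still, at 349, 395, 398, 334 and 234. Without calcium the 4 levels were 145, 248, 157 and 101.1.

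Other forms of the fusions cut the same origins. Over the 75 Abf1 origins the short-linker library at 30 s differed from the mean of the 3 long-linker replicates by a median log2 value of -0.17, and lay below all 3 replicates at 42 origins and above all 3 at 8. At origins not called for Abf1 the median was -0.15, so this shift was not particular to called origins. Over the 53 Reb1 origins the short-linker median was -0.06 and the N-terminal median 0.06, with 14 origins below and 10 above for the first and 14 below and 16 above for the second. At origins not called for Reb1 these medians were 0.28 and 0.007. Across all 341 origins Spearman's rho with the long-linker mean was 0.964 for short-linker Abf1, 0.958 for short-linker Reb1 and 0.939 for N-terminal Reb1, as a description over windows that share a library. In the single X-ChIP library the median window level was 99.2 at the 75 Abf1 origins and 91.7 at the 266 others. It was 105.7 at the 35 Rap1 origins, 99.5 at the 53 Reb1 origins and 97.1 at the 33 called for Abf1 alone. These sets overlap, as 23 origins were called for Abf1 and Reb1, 5 for Abf1 and Rap1 and 14 for all 3. Whether the X-ChIP level sets Abf1 calls apart from those of the other factors was not tested. X-ChIP fragment midpoints within 50 bp of the Abf1 summit were at a median of 63.6 (scaled like the ends) at the 75 called origins and 61.0 at the 266 others. At 200 to 400 bp away they were at 97.6 and 85.8. The highest window outside repeats was ARS1226, at 231.

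The origins highest in free MNase at 20 min were ARS811 and ARS810, at 776 and 739 normalised ends per kb. They lie in the 2 copies of the CUP1 metallothionein repeat in the reference, every 25-base word of their windows occurs more than once, and they were also the highest 2 in the X-ChIP library, at 647 and 638. ARS1308, ARS1423 and ARS736 followed at 280, 269 and 268, against a median of 126 over all origins. None of the factors was called at ARS811, ARS810 or ARS1308, and ARS1423 was called for Abf1 and Rap1 with log2 folds of 1.25 and 1.03.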

How the data were processed

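The study measured MNase cleavage by ChEC-seq in 56 libraries and Abf1 by X-ChIP-seq in 1. The authors sequenced 25 cycles from both ends and aligned them with Novoalign 2.08.03 to sacCer3. How fragments with several equally good places were treated is not given in the sources used here. The deposited fragment lists give a chromosome, a start and an end per fragment. They carry no counts of their own, and ends were tallied from them here, so that the counts are whole numbers of fragment ends made from the deposited positions. At the deposited positions 97.4% of start bases and 97.8% of end bases were A or T, so both were read as 1-based and inclusive.

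Ends were counted in the 341 origin windows and in 17878 windows of 650 bp of the rest, without mitochondrial and rDNA ends. The 18183 windows with at least 10 ends in at least 3 of the 10 libraries of 30 s were fitted with edgeR 4.0.16 (quasi-likelihood, R 4.3.3), with nuclear non-rDNA ends as library size and 1 spread shared by all groups (common BCV 0.27), the lone free MNase library being assumed to vary like the others. Standard errors are the log2 fold over the root of F. P-values were adjusted by Benjamini-Hochberg over all windows. DESeq2 1.42.0, TMM scaling, no filter, no flank, identical fragments counted once, other fold limits, other free MNase libraries and leaving out each replicate were the alternatives, and leaving out origins of repeated sequence and a run block were added after seeing the data. On simulated data with 100 windows raised in Abf1 at each fold, the fit over 18178 windows recovered 32% of 2-fold and 100% of 4-fold changes of Abf1 against the other factors, but 1% and 16% against the single free MNase library, with 11 and 1 unchanged windows called. All other simulated windows were equal, whereas in the data 2124 windows were higher and 12110 lower for Abf1 against free MNase. The adjusted p is stricter where few windows change, so these rates do not describe the calls made here. Densities were compared with scipy 1.17.1 (Python 3.11.15). Replicates differed beyond sampling noise (chi-square per degree of freedom 2.94 to 22.6), and Spearman's rho between them over origins was 0.948 to 0.984. The number of ends limits precision, and fragments of one PCR product are not independent.

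Named origins were the 8 called origins with the largest fold per factor, at most 5 called for all 3 factors, origins with a textbook site, ARS209, the 5 highest in free MNase at 20 min and those at the edge of the rule. Origins and lists were chosen with earlier results of these data known.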

Additional observations from a re-analysis of the deposited data

Results flagged for a closer look

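ARS209 (chrII:254998-255083), annotated as the former H4 ARS, stood out in the strain with N-terminal Reb1, a strain not used for the calls above. Its level was 269.1 normalised ends per kb at 30 s and 588.0 at 5 min, against 77.0 to 205.5 in the 11 free MNase libraries and 22.8 to 166 in the other 15 Reb1 libraries. At 30 s it was 4.43 times the mean of the C-terminal replicates, the highest such ratio of all origins before ARS1235 at 2.32. At 5 min it was 3.54 times the short-linker library, ahead of ARS1611 at 2.081. The level of 30 s was matched by Rap1 at 10 min (269). The fusion of this strain is carried on a plasmid with a yeast origin, and its part in these levels was not tested. Both are single libraries.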

How the results depend on the processing

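Counts of origins called depended on the scale and on the fold limit, the scale moving those against free MNase most. Against free MNase the counts for Abf1, Rap1 and Reb1 were 211, 171 and 167 with TMM and 237, 200 and 191 with DESeq2, and 37, 18 and 34 with a fold of at least 4. The shares of all windows were 29.5%, 26% and 25.3% with TMM and 33.7%, 30.4% and 27.8% with DESeq2. At 4-fold they were 6.26%, 3.56% and 4.85%. Against the other factors, Abf1 was higher at 74 origins with TMM, 81 with DESeq2, 79 with identical fragments counted once and 35 at 4-fold. The shares of all windows were 16%, 17.1%, 17% and 10%. Rap1 was higher at 58 with TMM, 60 with DESeq2, 48 with any fold above 1 and 13 at 4-fold, against 14.6%, 15.9%, 11.1% and 3.37% of all windows. Reb1 was higher at 88 with any fold and 21 at 4-fold, against 28.1% and 8.23%. Leaving out 1 replicate gave 72 to 77, 31 to 36 and 49 to 54 calls against free MNase, and 114 to 138, 21 to 25 and 47 to 60 against the other factors. Leaving out 1 replicate, the density difference between Abf1 and Reb1 ranged from -0.0045 (without Reb1 replicate 1) to 0.0603, that between Abf1 and Rap1 from 0.486 to 0.535 and that between Rap1 and Reb1 from -0.512 to -0.448. The last 2 were 0.551 and -0.522 without flanks, 0.346 and -0.343 with identical fragments counted once, and 0.318 and -0.278 over windows between genes. ARS1220 turned to -0.21 for Abf1 with the 40 s free MNase library (edgeR, adjusted p = 0.55). The cause was not tested. Replicate numbers did not pair the libraries (correlations of deviations between same-numbered libraries -0.324 to 0.301), and the replicate block gave 127, 23 and 53 calls against the other factors. Between libraries of different factors from the same run, 9 of 9 such correlations were above 0 (0.0112 to 0.301), against 5 of 18 from different runs. With the run as a block, added after seeing the data, Reb1 was higher than the other factors at 84 origins, and 4 calls at named origins were lost (ARS1220 for Abf1, ARS1310 for Reb1, ARS317 and ARS519 for Rap1).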
